A study of Mus musculus with 30 samples.

Results

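Whole hearts of 4-week-old R6/2 and wild-type (WT) mice, the youngest hearts of the series and taken before symptoms, were compared by RNA-seq. The libraries were chosen by the age and genotype in the column headings of the count table, which gave 4 R6/2 and 4 WT hearts of the 30 hearts sequenced. R6/2 mice are hemizygous for a transgene that holds the start of the human huntingtin gene with an expanded CAG repeat, under the human huntingtin promoter, so that its expression is not limited to heart muscle. The line was kept by crossing transgenic males with F1 females of CBA and C57BL/6 parents, and WT mice lack the transgene. Hearts were snap frozen and RNA was taken from the entire organ, so that fewer cells of a type and less RNA per cell cannot be told apart. The headings also gave the mouse number, a code from L1 to L8 that no label explains and the sex, with 2 males (mice 10 and 11) and 2 females (mice 12 and 13) among WT and 2 males (mice 9 and 14) and 2 females (mice 15 and 16) among R6/2 hearts. Transcripts of Xist and of Y-linked genes matched the stated sex in all 8 hearts. RNA of the human transgene was not analysed here.

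Huntingtin with a long glutamine tract misfolds, and cells meet misfolded protein with heat shock proteins, chaperones whose genes are switched on by the transcription factor Hsf1. A heart under load typically returns to a foetal gene programme, with more natriuretic peptide and a shift between the myosin heavy chains Myh6 and Myh7, and later lays down extracellular matrix. The comparison asked how far the hearts of R6/2 mice already differed from WT across all expressed genes.

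The differences at 4 weeks were small and 0 genes passed the test. Of 15478 genes tested with the quasi-likelihood test of edgeR, 0 (0%) were called, which needed a Benjamini-Hochberg adjusted p below 0.1 together with a change of 1.3-fold or more, while 513 (3.31%) had an unadjusted p under 0.05. The log2 fold change, R6/2 over WT, had a median of -0.01, and its absolute value had a median of 0.12 and stayed under 0.46 for 90% of genes. Genes that differed by over 2-fold were 356 lower and 65 higher in R6/2 hearts, and WT mice 12 and 13, which carried thymus transcripts, were the 2 highest hearts for 225 of the lower genes (63.2%, against 5.66% of all tested genes). R6/2 mouse 9 was the highest heart for 36 of the 65 higher genes (55.4%, against 19.6% of all tested genes). DESeq2 called 68 of 18186 genes (0.374%), 60 lower (0.330%) and 8 higher (0.0440%), with 843 at an unadjusted p under 0.05. In 57 of its 60 lower genes, WT mice 12 and 13 were the highest of the 8 hearts. Without these hearts edgeR again called 0 genes. DESeq2 then called 27 (23 higher and 4 lower), which held 6 of the 8 higher genes and 0 of the 60 lower genes. Mice 12 and 13 were the WT females, so that WT mice 10 and 11, both males, then stood against R6/2 hearts of both sexes. Sex was no term of these tests, here or where the same hearts were left out below.

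**Figure D1:**
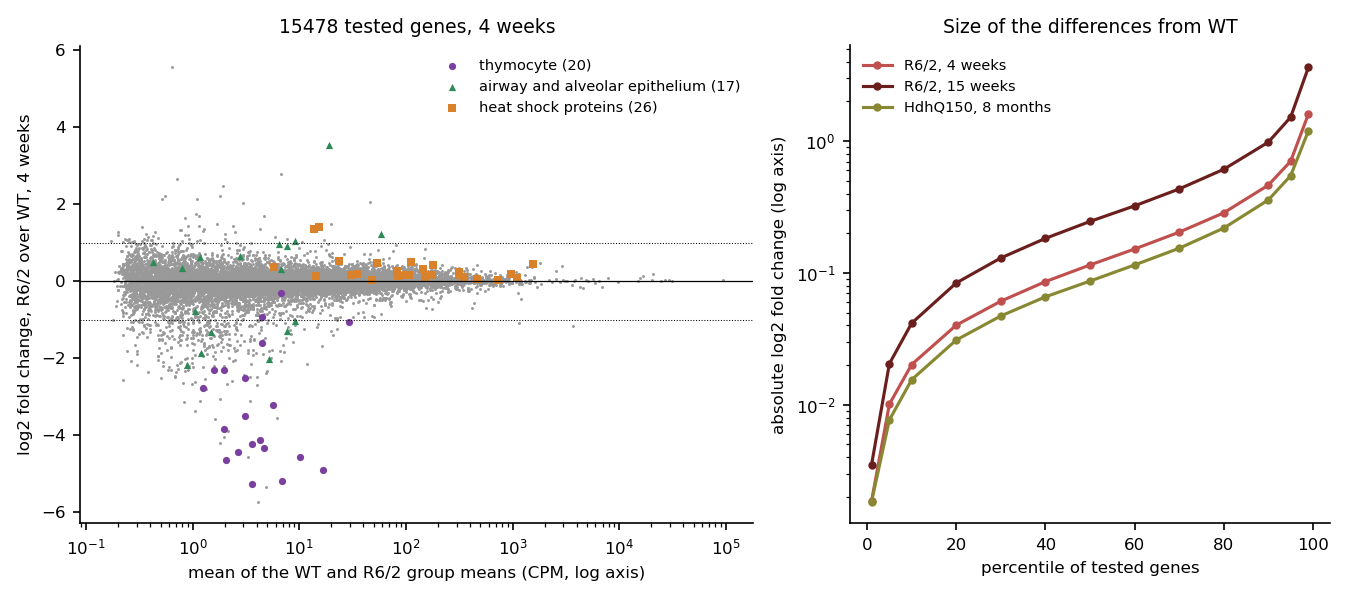
Left, log2 fold change of R6/2 over WT against the mean level (CPM, log axis) for the 15478 tested genes, with thymocyte, airway and heat shock genes marked and dotted lines at a 2-fold change. Right, absolute log2 fold change (log axis) by percentile of tested genes: the median was 0.12 for R6/2 at 4 weeks, 0.25 for R6/2 at 15 weeks and 0.09 for HdhQ150 at 8 months.

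Transcripts of thymus were most abundant in WT mice 12 and 13, with less in WT mouse 10, and those of airway in R6/2 mouse 9 and WT mouse 12, with less in R6/2 mice 14 and 15. The 27 thymocyte markers, genes of developing T cells, summed to 75.0, 44.0, 505 and 393 CPM (counts scaled to a common library size) in WT mice 10, 11, 12 and 13 and to 34.1, 37.9, 45.2 and 38.6 CPM in R6/2 mice 9, 14, 15 and 16. The WT mean was 254 ± 230 CPM and the R6/2 mean 39.0 ± 4.63 CPM (SD, n = 4 each), a difference of -215.5 CPM (exact permutation test, two-sided, p = 0.0571, where the smallest possible p is 0.0286, and 0.742 after adjustment over 13 marker sums). Above 1 CPM were 26 of the 27 markers in each of mice 12 and 13, 16 in WT mouse 10 and 4 to 7 in the other hearts. Rag1, which cuts the antigen receptor genes of developing lymphocytes, was at 5.03, 0, 39.5 and 59.0 CPM in WT and at 0, 0.05, 0.13 and 0 CPM in R6/2 hearts. It was thus far above the rest in WT mice 12 and 13, present in WT mouse 10, and at or near 0 in WT mouse 11 and the 4 R6/2 hearts. Foxn1, the master regulator of thymic epithelium, had counts in WT mice 12 and 13 alone (1.68 and 0.40 CPM), and the protease gene Prss16 reached 69.6 and 12.2 CPM there against at most 1.06 CPM elsewhere.

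The airway and alveolar markers split otherwise. Their 27 genes summed to 16.3, 12.6, 379 and 27.6 CPM in WT mice 10 to 13 and to 558, 106, 58.7 and 11.99 CPM in R6/2 mice 9, 14, 15 and 16, so that the groups overlapped over nearly the full range (difference 74.8 CPM, exact permutation test, two-sided, p = 0.543, adjusted 0.960). Without R6/2 mouse 9 the difference was -50.06 CPM. Of the 17 markers tested singly, 10 were higher in R6/2 hearts (3 over 2-fold) and 7 were lower (6 over 2-fold). Epcam, an epithelial gene, peaked in WT mouse 12 (4.36 CPM, with at most 0.78 CPM elsewhere). That heart also had the highest thymic epithelial sum (157.7 CPM), and the part of thymic epithelium in its airway sum was not tested. The airway genes given next had higher means in R6/2 hearts. Scgb1a1, the secretory protein of club cells, was at 270, 39.0, 17.6 and 0.19 CPM in R6/2 and at 1.69, 0.05, 138 and 0.04 CPM in WT hearts. Sftpc, the surfactant protein of alveolar cells, reached 13.1 CPM in R6/2 mouse 9 and at most 0.56 CPM in the others. Bpifa1, an airway secretory gene, stood at 105, 20.6, 13.8 and 0.02 CPM in R6/2 hearts against 0.78, 0.03, 10.9 and 0.07 CPM in WT hearts, with a log2 fold change of 3.55 ± 1.78 (SE), the highest among genes with a mean of at least 1 CPM. The part of these tissues in the differences below was not tested apart from the counts without mice 12 and 13 and without mouse 9. WT mouse 10 was kept in the counts without mice 12 and 13. In these, 16 of 20 thymocyte markers were still lower in R6/2 hearts (median log2 fold change -0.80). All 8 markers of cardiomyocytes exceeded 1 CPM in every heart and summed to 34308 to 51052 CPM. Red cell markers, the globins among them, summed to 2765 and 3001 CPM in WT mice 10 and 13 and to 3387 CPM in R6/2 mouse 16, against 271 to 880 CPM in the other 5 hearts.

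**Figure D2:**
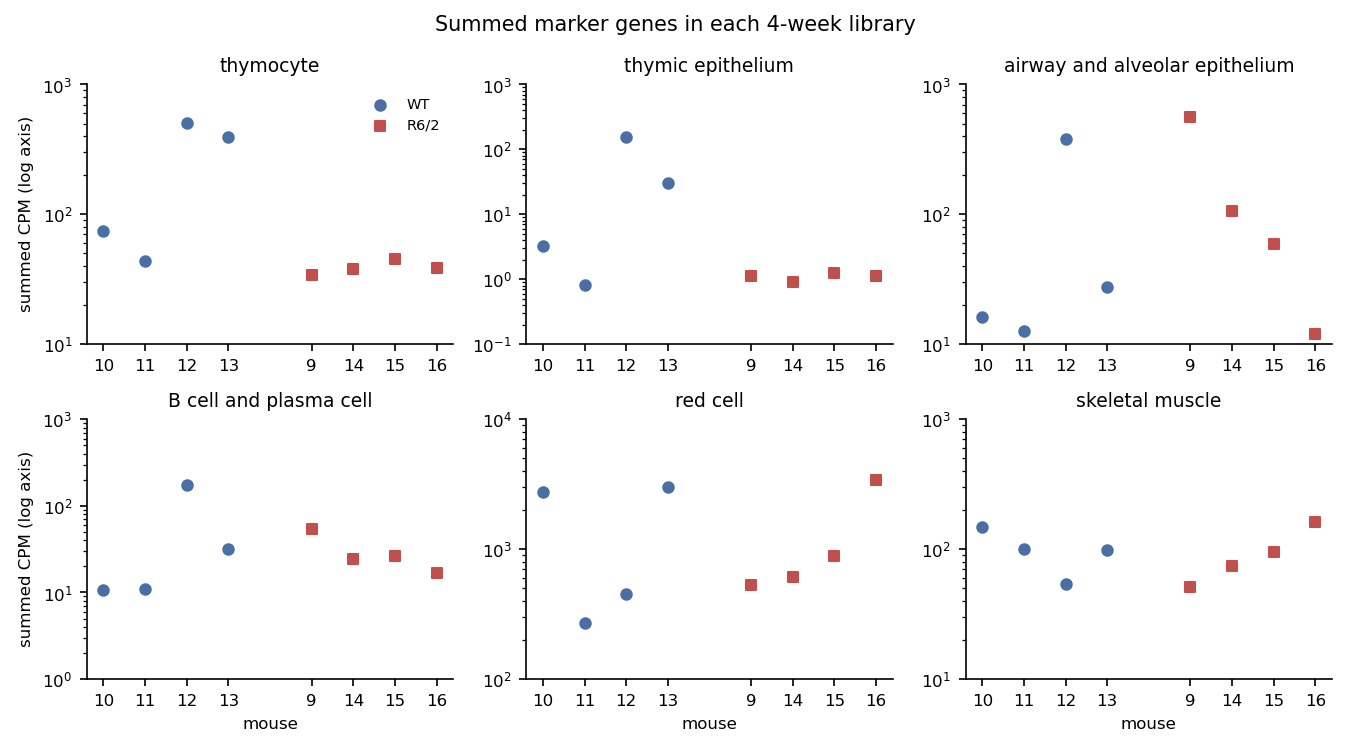
Summed level (CPM, log axis) of the markers of 6 cell types in each of the 4 WT (circles) and 4 R6/2 (squares) hearts, by mouse number. Thymocyte and thymic epithelial sums stand apart in WT mice 12 and 13, and airway sums are highest in R6/2 mouse 9 (558 CPM) and WT mouse 12 (379 CPM).

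How closely a difference was bounded depended on the level of a gene. Total counts per heart ran from 38658469 to 52711584 and the biological coefficient of variation between hearts was 0.291. The 95% interval of the fold change lay within a 2-fold change for 12028 genes (77.7%) and within a 1.3-fold change for 4311 genes (27.9%). Of the 7258 genes with a mean of 10 to 100 CPM, 94.5% had an interval within 2-fold and the median absolute log2 fold change was 0.08. For the 2225 genes under 1 CPM these values were 27.2% and 0.28, so that for most such genes the interval reached a 2-fold change. The 10 most abundant genes by FPKM were all mitochondrial. The cytochrome oxidase gene mt-Co1, for example, was at 59700 ± 7524 FPKM in WT and 60852 ± 2922 FPKM in R6/2 hearts (SD, n = 4 each).

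Larger effects were found with the same test where the series offered them. At 15 weeks edgeR called 2205 of 15463 genes (14.3%; 1209 higher, 7.82%, and 996 lower, 6.44%), and the median absolute log2 fold change of R6/2 over WT was 0.25. Between HdhQ150 and WT hearts at 8 months, the other comparison made before symptoms, 0 of 15173 genes (0%) were called by edgeR, with 1124 at an unadjusted p under 0.05 and 70 called by DESeq2. The median absolute log2 fold change there was 0.09. Sex, tested over the same 8 hearts, gave 6 calls of 15808 genes (0.0380%), among them Xist (log2 difference of 9.63 ± 0.33, female over male) and the Y-linked Ddx3y (-10.37 ± 0.29; adjusted p from edgeR 1.89e-05 and 8.91e-06). Of the 2155 genes called at 15 weeks and tested at 4 weeks, 1269 (58.9%) had the same direction at 4 weeks, against 8052 of the 15077 genes tested at both ages (53.4%). The 1171 of these that were higher at 15 weeks had a median log2 fold change of 0.75 there and of 0.05 at 4 weeks, and the 984 lower ones had medians of -0.86 and -0.05. WT hearts carried thymus transcripts at both ages (mice 1 and 2, and mice 12 and 13), and 23 of 25 thymocyte markers were called lower in R6/2 hearts at 15 weeks. Their part in the shared direction was not tested.

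Genes of chromosome 4 and the inducible heat shock genes were among those of smallest p at 4 weeks. Gm12695, a predicted gene on chromosome 4, had 47, 60, 74 and 43 counts in R6/2 mice 9, 14, 15 and 16 and 0, 0, 4 and 0 counts in WT mice 10 to 13. Every R6/2 heart was above every WT heart, and per total count the R6/2 group had 51.9 times the WT level, with an exact 95% interval of 20 to 192 that covers counting error only. The adjusted p was 0.881 with edgeR and 1.90e-08 with DESeq2. It lies on the chromosome with the largest share of genes whose groups did not overlap, 48 of 963 tested (28 higher and 20 lower, 4.98%), against 329 of all 15478 genes (2.13%; 160 higher, 1.03%, and 169 lower, 1.09%). Fbxo44, which codes for a subunit of a ubiquitin ligase and also lies there, was at 21.2, 6.04, 6.45 and 13.04 CPM in R6/2 and at 0.23, 0.27, 5.54 and 0.69 CPM in WT hearts. Its lowest R6/2 value was just above that of WT mouse 12 and far above the other WT hearts (log2 fold change 2.78 ± 0.99). Fv1, a retroviral restriction gene on the same chromosome, was at 12.6, 8.85, 8.81 and 12.04 CPM in R6/2 and at 3.77, 3.54, 6.55 and 5.78 CPM in WT hearts. Its groups did not overlap, and its log2 fold change was 1.10 ± 0.24 (adjusted p of 1.0 with edgeR and 0.0139 with DESeq2). Snapc3, a subunit of the complex that transcribes small nuclear RNA genes and likewise on chromosome 4, showed the least spread of these genes, at 8.50, 8.52, 8.29 and 8.25 CPM in WT and 11.5, 12.1, 10.1 and 10.6 CPM in R6/2 hearts (0.40 ± 0.10, adjusted p of 0.0582 with DESeq2, not called by edgeR). Without WT mice 12 and 13 its log2 fold change was 0.38 with edgeR, and DESeq2 no longer called it.

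Most other genes of small p were lower in R6/2 hearts and low in level. Kif18a, a kinesin of the mitotic spindle, was at 1.21, 1.10, 1.32 and 1.36 CPM in WT and at 0.49, 0.69, 0.43 and 0.68 CPM in R6/2 hearts. The groups lay apart, and WT mice 12 and 13 stood near the other WT hearts (log2 fold change -1.12 ± 0.24, adjusted p of 0.0387 with DESeq2, not called by edgeR). Without WT mice 12 and 13 the log2 fold change of Kif18a was -1.01 with edgeR, and DESeq2 no longer called it. Tox, a factor of T cell development, was highest in WT mice 12 and 13 (3.87 and 3.61 CPM), but WT mice 10 and 11 (1.58 and 2.22 CPM) were also above all R6/2 hearts (0.78 to 1.23 CPM). Nup210, a nuclear pore protein, had a similar order, with 7.07 to 16.2 CPM in WT and 4.39 to 5.32 CPM in R6/2 hearts. Acr, a sperm protease, Draxin, an axon guidance gene of chromosome 4, and Ccdc18 stayed under 1 CPM in every heart, with log2 fold changes of -1.50 ± 0.33, -1.81 ± 0.35 and -2.17 ± 0.49. Disp2, a member of the dispatched family, was as low and had 1.41 ± 0.30. The most negative log2 fold changes among genes with a mean of at least 1 CPM, from -5.73 for Trbc2 to -4.90 for Tcf7, belonged to genes of T cells, Cd8a, Cd8b1 and Myb being the others, and their groups overlapped, since WT mouse 11 was as low as the R6/2 hearts. Dntt, Sh2d1a, Cd27 and Ccr9, which are genes of lymphocytes, and Syt13 had the smallest adjusted p among the 60 lower genes of DESeq2. On the higher side, Has1, which makes hyaluronan, was at 9.56 CPM in R6/2 mouse 9 and at 0.40 to 1.10 CPM in the other hearts. Otoa, an inner ear gene, ranged from 1.38 to 6.23 CPM in R6/2 and from 0.05 to 2.06 CPM in WT hearts, and Zfp982, a zinc finger gene of chromosome 4, from 1.14 to 2.72 and from 0.08 to 0.87 CPM.

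**Figure D3:**
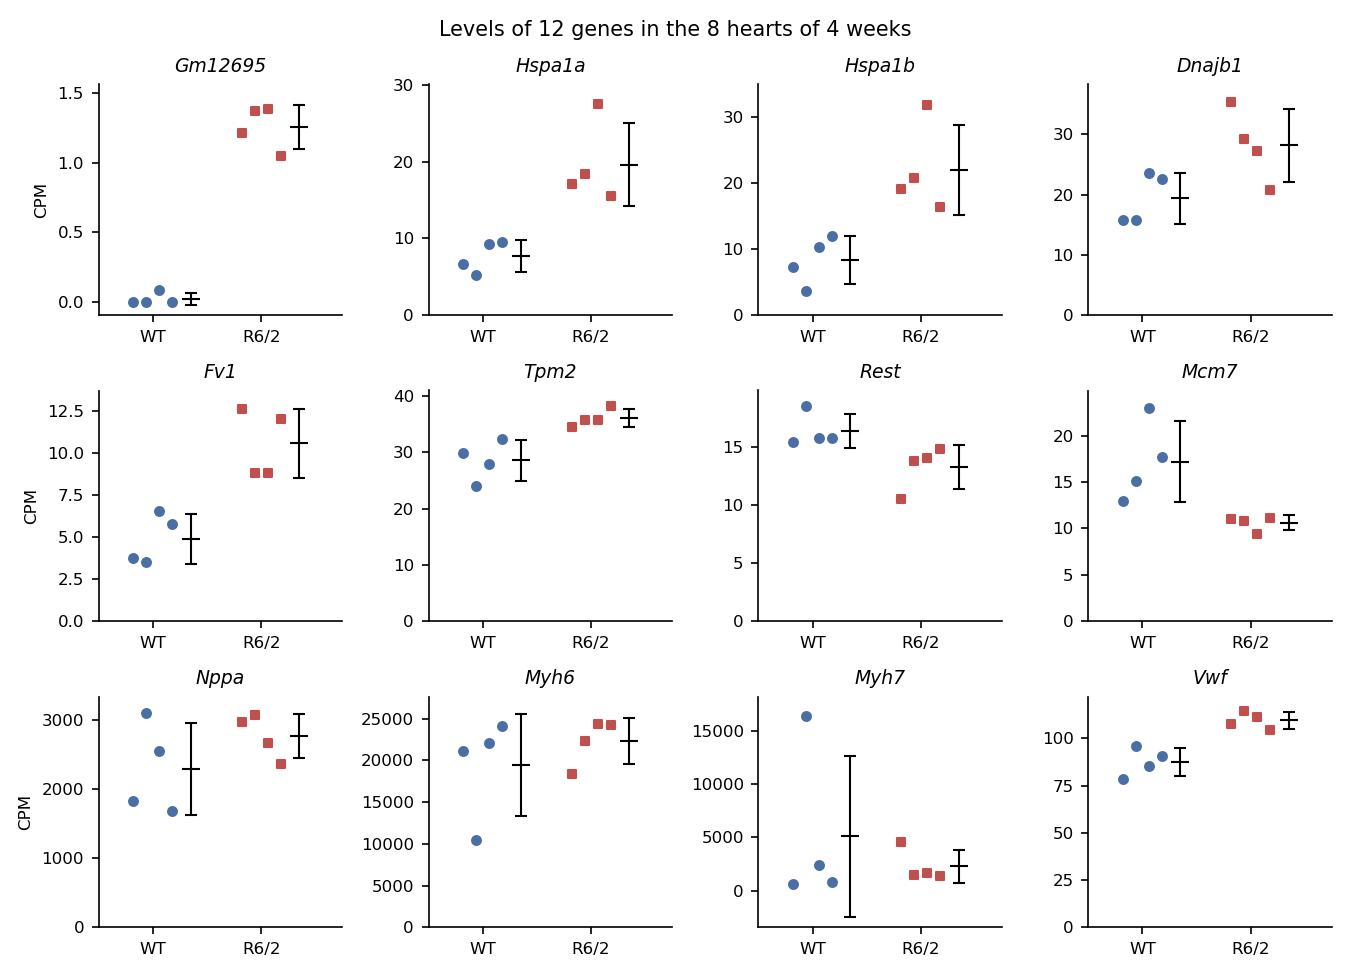
Level (CPM) of 12 genes in the WT (circles) and R6/2 (squares) hearts, with the group mean and SD to the right of the points. The groups do not overlap for Gm12695, Hspa1a, Hspa1b, Fv1, Tpm2, Rest, Mcm7 and Vwf, whereas Myh7 was highest by far in a single heart (16414 CPM in WT mouse 11).

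Hspa1a and Hspa1b, neighbouring genes for the inducible Hsp70 chaperone, were higher in all 4 R6/2 hearts. Hspa1a was at 17.0, 18.3, 27.5 and 15.5 CPM in R6/2 mice 9, 14, 15 and 16 and at 6.67, 5.28, 9.32 and 9.59 CPM in WT mice 10 to 13. The lowest R6/2 heart lay above the highest WT heart, with a mean of 19.6 ± 5.38 against 7.71 ± 2.09 CPM (SD, n = 4 each). The log2 fold change was 1.34 ± 0.24 (SE), with a 95% interval from 0.79 to 1.90. The adjusted p was 1.0 with edgeR and 0.00199 with DESeq2, and 2.20e-05 with DESeq2 without WT mice 12 and 13. Hspa1b was at 19.1, 20.7, 31.8 and 16.4 CPM in R6/2 and at 7.29, 3.70, 10.4 and 12.1 CPM in WT hearts, again without overlap, with a log2 fold change of 1.40 ± 0.35 (adjusted p of 1.0 with edgeR and 0.0429 with DESeq2). Across all alternatives run for Hspa1a the log2 fold change stayed between 0.99 and 1.92. The coding sequences of this pair are nearly identical, so that reads may have been divided between them and their levels are not independent.

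The bases before the start sites of both genes, and of the small heat shock gene Hspb1, are given here. The reason is that the heat shock element to which Hsf1 binds is built from repeats of GAA and its reverse complement, TTC. Each stretch holds the 250 bases upstream of the RefSeq start site in GRCm38.p6, written 5′ to 3′ on the gene's strand, at chr17:34972157-34972406 (minus strand) for Hspa1a, chr17:34959239-34959488 (minus strand) for Hspa1b and chr5:135887669-135887918 (plus strand) for Hspb1. Capitals mark matches of GAANNTTC, in which N is any base.
Hspa1a: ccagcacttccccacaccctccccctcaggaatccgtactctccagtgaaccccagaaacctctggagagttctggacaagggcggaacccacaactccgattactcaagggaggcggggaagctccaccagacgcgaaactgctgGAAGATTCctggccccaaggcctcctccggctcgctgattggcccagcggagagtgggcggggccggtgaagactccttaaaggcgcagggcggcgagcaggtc
Hspa1b: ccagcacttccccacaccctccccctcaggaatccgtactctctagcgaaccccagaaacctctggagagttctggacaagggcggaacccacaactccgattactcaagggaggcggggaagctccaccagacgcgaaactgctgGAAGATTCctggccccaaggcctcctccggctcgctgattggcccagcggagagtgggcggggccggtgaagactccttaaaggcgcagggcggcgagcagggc
Hspb1: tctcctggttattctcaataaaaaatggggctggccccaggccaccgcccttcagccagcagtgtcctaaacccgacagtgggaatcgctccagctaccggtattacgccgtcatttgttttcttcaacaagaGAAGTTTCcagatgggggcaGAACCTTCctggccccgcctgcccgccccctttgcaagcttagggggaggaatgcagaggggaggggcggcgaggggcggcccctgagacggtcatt
The first 2 stretches differ at 3 of 250 bases (98.8% identical) and each holds 1 match, which begins 104 bases before the start site. The Hspb1 stretch holds 2 matches, which begin 117 and 97 bases before the start. The letters GAANNTTC, which read the same on both strands, occur in 2199 of 32851 such stretches (6.69%), and TTCNNGAA, which also reads the same on both strands and can overlap the first, in 2354 (7.17%). Promoters were held for 21 of the 26 heat shock genes listed, and 9 of them (42.9%) had a match of either kind at a start site, against 3932 of 27025 genes (14.5%). The 9 are not all independent, since the stretches of Hspa1a and Hspa1b are near copies. Hspd1 and Hspe1 also had the same numbers of matches, 1 of GAANNTTC and 2 of TTCNNGAA each. These matches describe sequence, and binding was not measured.

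All 26 heat shock genes tested had a log2 fold change above 0, from 0.02 for Cryab, a small heat shock protein of the lens and heart, to 1.40 for Hspa1b. Their median was 0.17, and of all tested genes 46.9% were above 0. The members share the same 8 hearts and are not independent of each other, and 0 passed the edgeR threshold, while 3 had an unadjusted p under 0.05 (background of 1.31% in this direction). Dnajb1, the Hsp40 partner of Hsp70, was at 35.4, 29.2, 27.2 and 20.8 CPM in R6/2 and at 15.7, 15.8, 23.5 and 22.6 CPM in WT hearts. R6/2 mouse 16 fell among the WT hearts, and the log2 fold change was 0.53 ± 0.20 (adjusted p from edgeR 1.0). Dnaja1, another Hsp40, Hsp90aa1, the inducible Hsp90, and Hspb1 had log2 fold changes of 0.49 ± 0.26, 0.41 ± 0.22 and 0.32 ± 0.15, with overlapping groups. Leaving out 1 heart at a time kept 23 to 26 of the 26 genes above 0, with medians from 0.14 (without R6/2 mouse 15) to 0.23 (without R6/2 mouse 14). Without WT mice 12 and 13 the count was 24 (median 0.21), and without WT mice 11 and 12 it was 21 (median 0.12).

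At 15 weeks the same genes lay on the other side of WT, and the difference between the ages was tested. Of them, 24 of 26 were lower in R6/2 hearts and 13 were called lower (0 higher) by edgeR, against 996 of all 15463 genes called lower (6.44%), or 5 (without R6/2 mouse 5 or 7) to 13 with 1 heart left out. There, Hspa1a was at a log2 fold change of -2.07 ± 0.47 (adjusted p = 0.0452 with edgeR). The interaction of genotype and age was called for 86 of 16339 genes (0.526%; 41 with the higher effect at 4 weeks and 45 with the lower), and leaving out 1 heart at a time moved that number between 13 (without R6/2 mouse 15) and 516 (without WT mouse 4). It was above 0 for 25 of the 26 heat shock genes and called for 5. The effect at 4 weeks minus that at 15 weeks was 3.43 ± 0.57 for Hspa1a, 3.59 ± 0.76 for Hspa1b, 1.49 ± 0.24 for Dnajb1, 1.74 ± 0.36 for Dnaja1 and 1.70 ± 0.32 for Hsp90aa1 (log2; adjusted p from edgeR 0.0346, 0.0759, 0.0310, 0.0668 and 0.0585). WT hearts at 15 weeks spread widely in these genes, with Hspa1a at 13.4, 17.5, 51.4 and 11.1 CPM in WT mice 1 to 4 against 4.82 to 6.11 CPM in the R6/2 hearts. Without WT mouse 3, the highest of them, the difference for Hspa1a was 2.65 (adjusted p = 0.0168 from edgeR), and 2 of the 26 genes were called. With each of the 16 hearts left out in turn, 2 to 9 of the 26 genes were called (9 without WT mouse 4), with Hspa1a and Dnajb1 among them each time. Without the WT hearts with the most thymus transcripts (mice 1, 2, 12 and 13) the interaction was called for 11 genes, and for 2 heat shock genes. WT mouse 10, which had less of these transcripts, was kept. In 4 of the 8 hearts of 15 weeks, sex-linked transcripts went against the sex in the heading, which was no term of this test.

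**Figure D4:**
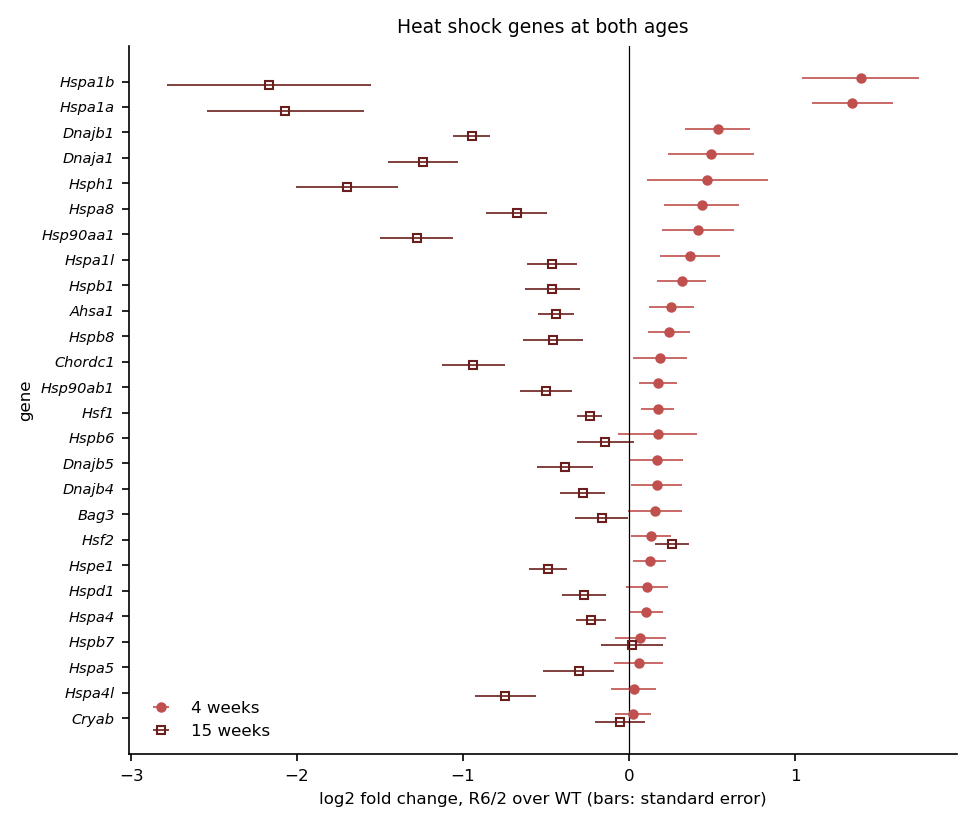
Log2 fold change of R6/2 over WT for the 26 heat shock genes at 4 weeks (filled circles) and at 15 weeks (open squares), with bars of 1 standard error. All 26 lie above 0 at 4 weeks, and 24 lie below 0 at 15 weeks.

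The 5 genes with the smallest adjusted p in this test of age lay outside the heat shock list. Cited2, a transcriptional co-regulator, had a log2 fold change of -0.33 at 4 weeks and 1.42 at 15 weeks (difference -1.74 ± 0.21, adjusted p = 0.0114 from edgeR). Bmp10, a growth factor of atrial muscle, had 0.24 and -1.40 (difference 1.64 ± 0.23, adjusted p = 0.0136 from edgeR), and Uck2, a uridine kinase, had 0.15 and -1.19. Rrp12, needed for ribosome export, and the orphan membrane gene Tmem164 completed them, with differences of 1.22 ± 0.17 and -1.23 ± 0.18.

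Genes of the foetal and hypertrophy programme showed no common shift at 4 weeks. Of 15 genes 10 were higher and 5 lower, with a median log2 fold change of 0.09 and none at an unadjusted p under 0.05. Nppa, the gene for atrial natriuretic peptide, was at 2979, 3071, 2672 and 2371 CPM in R6/2 and at 1828, 3109, 2550 and 1690 CPM in WT hearts. The groups overlapped, and the log2 fold change was 0.27 ± 0.20, with an interval from -0.19 to 0.74 that still allows an increase of that size. Nppb, for brain natriuretic peptide, had 0.26 ± 0.36, Fhl1, a LIM protein of hypertrophy, 0.26 ± 0.16 and its relative Fhl2 -0.05 ± 0.45. S100a4, a calcium-binding protein, and Vgll4, a cofactor of TEAD factors, had -0.22 ± 0.41 and 0.09 ± 0.17. Foxo3, a stress-regulated transcription factor, had -0.33 ± 0.23, with 159 CPM in WT mouse 11 and 72.6 to 100.1 CPM in the other hearts. Of the 19 genes tested from a list of those the study assayed singly, 13 were higher (median 0.12), and 10 without WT mouse 11 (median 0.01). Myh7, the slow myosin of the foetal ventricle, was at 673, 16414, 2455 and 819 CPM in WT and at 4532, 1519, 1638 and 1403 CPM in R6/2 hearts, so that WT mouse 11 alone placed WT higher (log2 fold change -1.16 ± 0.99). Without R6/2 mouse 9 and WT mouse 11 it was 0.21. Myh6, the adult myosin, was at 10509 CPM in WT mouse 11 and between 18371 and 24345 CPM in the other 7 hearts. Tnni1, the foetal troponin I, had -1.14 ± 0.64 and was highest, at 11.95 CPM, in the same WT heart. In WT mouse 11, 15 of 18 skeletal muscle markers exceeded 1 CPM, against 6 or 7 in each other heart. Their sum there, 99.7 CPM, was under the 160.6 CPM of R6/2 mouse 16. The part of skeletal muscle in Myh7 and Tnni1 was not tested. Tpm2, a tropomyosin, was the sarcomere gene with the clearest separation, at 34.6 to 38.3 CPM in R6/2 and 24.0 to 32.4 CPM in WT hearts (0.34 ± 0.10, adjusted p from edgeR 1.0). In the sarcomere list as a whole 23 of 45 genes were higher, with a median of 0.03.

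Among genes of the electrical and nervous control of the heart, Gja1, the connexin of ventricular gap junctions, was at 317, 317, 395 and 329 CPM in R6/2 and at 341, 242, 343 and 328 CPM in WT hearts. R6/2 mice 9, 14 and 16 lay within the WT range, and the log2 fold change was 0.12 ± 0.14. Gja5, the atrial and conduction connexin, had 0.36 ± 0.13 with overlapping groups (adjusted p from edgeR 1.0). In the list of ion channels and gap junctions 19 of 34 genes were higher, and in that of calcium handling 8 of 24, with medians of 0.04 and -0.05. Without WT mouse 11 the first count was 14 of 34 (median -0.02), and without R6/2 mouse 9 the second was 18 of 24 (median 0.09). Of 24 genes of autonomic innervation 17 were higher (median 0.14), although without WT mouse 11 the count was 11. Adra1a, an adrenergic receptor, had -0.91 ± 0.42, and Ddc, an enzyme of catecholamine synthesis, had -0.49 ± 0.22 with groups that did not overlap. Th, the first enzyme of that pathway, was too low to test, at 0 to 0.17 CPM. Bdnf, a neuronal growth factor, was at 5.60 CPM in WT mouse 11 and between 1.56 and 2.90 CPM in the other hearts (log2 fold change -0.15 ± 0.39). Mouse Htt, the normal gene, was at 36.6 ± 4.69 CPM in WT and 34.4 ± 6.56 CPM in R6/2 hearts (SD, n = 4 each). Rest, the repressor of neuronal genes, was lower in each R6/2 heart (10.6, 13.8, 14.1 and 14.8 CPM) than in each WT heart (15.4, 18.5, 15.8 and 15.8 CPM), with a log2 fold change of -0.30 ± 0.13 (adjusted p from edgeR 1.0). Its list, huntingtin and its partners, had 7 of 17 genes higher.

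Metabolic genes differed little. Of 78 nuclear genes of oxidative phosphorylation 41 were higher, with a median of 0.01, and the intervals of all 78 lay within a 2-fold change. The count was 48 without WT mouse 11 and 53 without R6/2 mouse 9, and leaving out pairs of hearts moved it to 15 without WT mice 12 and 13 and to 64 without R6/2 mouse 9 and WT mouse 11. Fatty acid oxidation genes were higher in 30 of 33 cases, with a median of 0.17. Without R6/2 mouse 9 the list had 24 of 33 genes higher and a median of 0.09. Fabp3, the fatty acid carrier of heart muscle, had 0.47 ± 0.22. Of 19 genes of the circadian clock 15 were higher (median 0.17), and 11 without R6/2 mouse 9 (median 0.17). Per2, a repressor of the clock, ranged from 19.6 to 95.7 CPM within the R6/2 hearts alone (0.52 ± 0.46), and glycolysis had 8 of 22 genes higher (median -0.02), but 13 of 22 without WT mouse 11 (median 0.04).

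Genes of dividing cells and of the interferon response were lower in R6/2 hearts, each with a set of WT hearts above the rest. Of 40 cell cycle genes 39 were lower, with a median of -0.98, 11 at an unadjusted p under 0.05 (background of 2.00% in this direction) and 0 called. Their sums were 328, 160, 430 and 427 CPM in WT mice 10 to 13 and 146, 179, 200 and 263 CPM in R6/2 mice 9, 14, 15 and 16. WT mice 12 and 13, which carried the thymocyte markers, were highest, and without them 36 of 40 were lower with a median of -0.42 and 1 at an unadjusted p under 0.05. The number at that p was 36 without WT mouse 11 (median -1.27) and 4 without R6/2 mouse 9 (median -0.79). Mcm7, a helicase of DNA replication, was at 12.9, 15.1, 23.0 and 17.7 CPM in WT and 11.01, 10.8, 9.40 and 11.2 CPM in R6/2 hearts (-0.70 ± 0.17), and Rrm1, which makes deoxynucleotides, had -0.56 ± 0.18, both without overlap. All 42 interferon genes were lower, with a median of -0.40. Their sums were 1312, 2896, 2060 and 823 CPM in WT and 1110, 1905, 1432 and 948 CPM in R6/2 hearts, so that the groups overlapped. Ifit1, an antiviral gene, was at 173 CPM in WT mouse 11 and 10.9 to 49.9 CPM in the other hearts. Without WT mouse 11, 27 of 42 were lower (median -0.06), and without WT mice 11 and 12, 9 of 42 (median 0.23), so that the direction rested on WT mice 11 and 12.

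**Figure D5:**
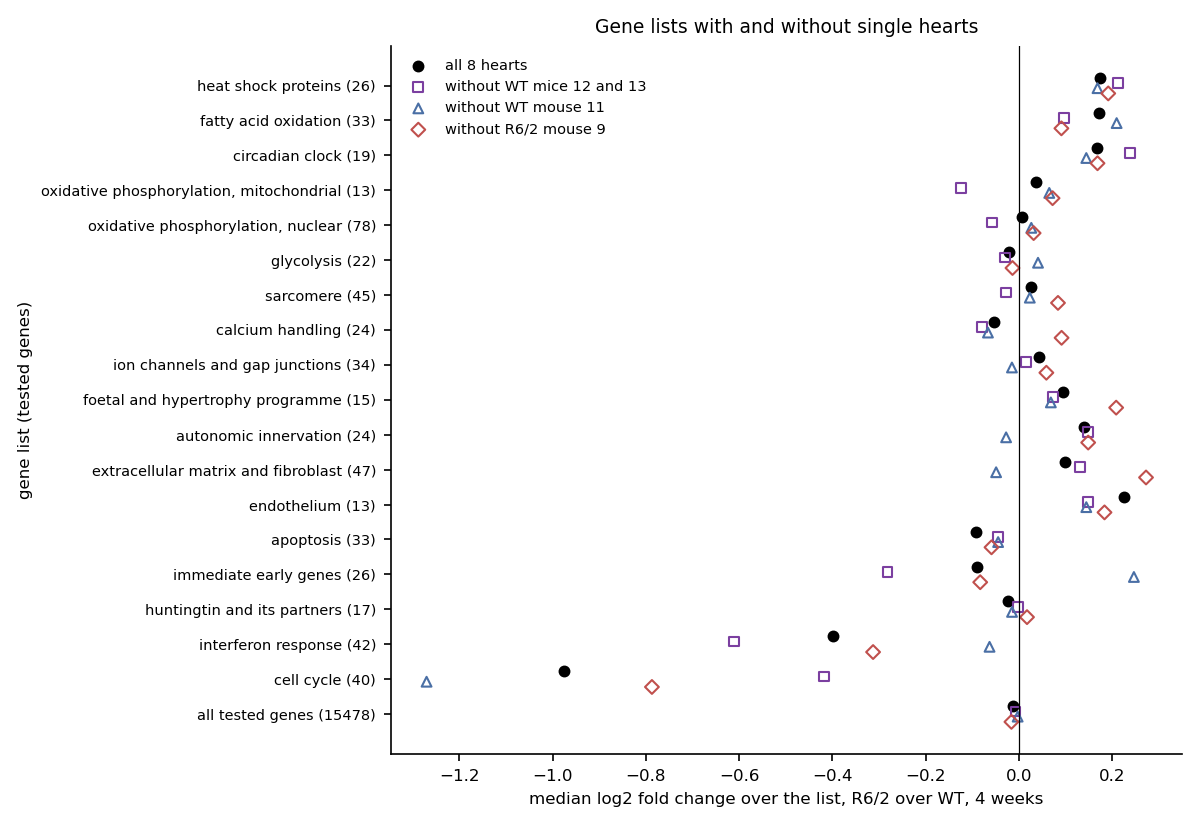
Median log2 fold change of R6/2 over WT in each gene list (number of tested genes in brackets), with all 8 hearts (filled circles) and with hearts left out (open symbols). The heat shock median is 0.17 with all 8 hearts and 0.21 without WT mice 12 and 13, while the cell cycle median moves from -0.98 to -0.42 without WT mice 12 and 13 and the interferon median from -0.40 to -0.06 without WT mouse 11.

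Neither matrix nor vessel genes had a median that held its size when hearts were left out. Of 47 genes of extracellular matrix and fibroblasts 33 were higher (median 0.10), but 21 without WT mouse 11 (median -0.05), and the sums spanned 3486 to 8038 CPM within the WT hearts alone. The collagen VI genes Col6a1, Col6a2 and Col6a3 had log2 fold changes of 0.07 ± 0.44, 0.12 ± 0.58 and 0.06 ± 0.58. Fmod, a collagen-binding proteoglycan, had 0.45 ± 0.17. In the 13 genes of endothelium 11 were higher (median 0.22), and 10 without WT mouse 11 (median 0.14), 9 without R6/2 mouse 9 and WT mouse 11 (0.07) and 8 without WT mice 11 and 12 (0.08). Vwf, which tethers platelets, was at 108, 115, 112 and 104 CPM in R6/2 and at 78.5, 95.9, 85.6 and 90.9 CPM in WT hearts, without overlap (0.32 ± 0.09, adjusted p of 1.0 with edgeR and 0.0898 with DESeq2). Eng, a co-receptor for TGF-beta, also separated the groups (0.34 ± 0.12). Apoptosis genes were lower in 22 of 33 cases (median -0.09), while Casp9, an initiator caspase, had 0.38 ± 0.18. Immediate early genes were lower in 15 of 26 cases, and in 10 of 26 without WT mouse 11. Of the remaining lists, 7 of 8 atrial genes (median 0.20), 7 of 9 genes of smooth muscle and pericytes (0.15) and 4 of 15 macrophage genes (-0.05) were higher. Without WT mouse 11 the smooth muscle and pericyte count was 5 of 9 (0.11), and without R6/2 mouse 9 the macrophage count was 10 of 15 (0.05).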

How the data were processed

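Heart RNA libraries were read as 50-base pairs, and the authors aligned them with OSA in Omicsoft to mouse genome B37 and deposited estimated counts per Ensembl gene and FPKM values computed from them. Among the deposited estimated counts above 0, 70.9% were whole (tolerance 1e-09), so the values were rounded to whole numbers, although whole counts had been planned for. Totals at 4 weeks ran from 38658469 to 52711584 (median 42211112), and 3 counts, the limit that a count of 0 allows, came to 0.0569 to 0.0776 CPM (counting error only). Symbols matched 32897 of 37620 identifiers, and the other 4723 held 0.759% of counts. Groups, mouse numbers, the codes L1 to L8 and sexes came from the column headings, where 0 columns of per-sample values were left unused.

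The main test was the quasi-likelihood test of edgeR 4.0.16 (R 4.3.3; TMM factors, filterByExpr) over the hearts compared, and a gene was called below 0.1 after Benjamini-Hochberg adjustment if it also differed 1.3-fold or more. DESeq2 1.42.0, limma 3.58.1 on log2(FPKM + 1), and the settings listed at the end were alternatives. CPM values used TMM factors, errors of fold changes are standard errors, and marker sums were compared by exact permutation tests over 70 relabelings (scipy 1.17.1, 13 sums). Nothing stated that hearts came from separate litters, and p-values measure the spread between these hearts.

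The samples, gene lists and genes were chosen with earlier results of these data known. The genes named are Gm12695, the 10 genes of smallest p without overlap, the 5 in each direction of smallest DESeq2 p and of largest fold change at a mean of at least 1 CPM, the 10 most abundant by FPKM, the 5 leading genes for sex and age, the genes the study assayed singly and up to 4 genes of smallest p in each list. Rag1, Foxn1, Prss16, Scgb1a1, Sftpc, Dnaja1, Cryab, Ifit1 and the genes under the last heading were chosen after their values were seen. Promoter sequences came from RefSeq (GRCm38.p6), since no genome of build 37 was used here, and no gene coordinates are given for the counts. Genes withheld from the text are not reported here.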

Additional observations from a re-analysis of the deposited data

Results flagged for a closer look

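Of 116 groups of 4 hearts tested for a single heart far from the other 3 of its group (a gap to the nearest, over the range, above Dixon's 95% critical value), 20 had one, where chance gives about 1 in 20. Several of the genes tested were chosen after their values were seen, so that this rate does not hold for them. WT mouse 11 stood apart in 6 genes outside the thymus and airway markers, with Myh7 at 16414 CPM, Ifit1 at 173 CPM, Rest at 18.5 CPM and Bdnf at 5.60 CPM as the highest and Gja1 at 242 CPM and Htt at 29.7 CPM as the lowest of the WT hearts. The same heart had the most skeletal muscle markers above 1 CPM (15 of 18). R6/2 mouse 9 was highest of its group in Myh7 at 4532 CPM, and R6/2 mouse 15 in Gja1 at 395 CPM. WT mouse 12 was highest of the WT hearts in the summed airway markers at 379 CPM, in Scgb1a1 at 138 CPM, Bpifa1 at 10.9 CPM, Cdh1 (an epithelial cadherin) at 7.31 CPM and Sftpc at 0.0447 CPM. The Sftpc value is under the 0.0749 CPM that 3 counts make in this heart, so that it shows no difference from 0. WT mouse 12 was also highest in the summed B cell and plasma cell markers at 172.8 CPM, in the thymus gene Tbata at 40.2 CPM, and in Fbxo44 at 5.54 CPM and Gm12695 at 0.0894 CPM, which rests on 4 counts. R6/2 mouse 9 was highest of its group in Scgb1a1 at 270 CPM (269.9) and Sftpc at 13.1 CPM, and R6/2 mouse 16 in the summed red cell markers at 3387 CPM.

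The R6/2 effect differed between 4 and 15 weeks for 86 genes (edgeR). Those named were Hspa1a at 3.43, Hspa1b at 3.59, Dnaja1 at 1.74, Hsp90aa1 at 1.70, Dnajb1 at 1.49 and Acr at -2.42 (log2 difference, 4 weeks minus 15 weeks; adjusted p from edgeR 0.0346, 0.0759, 0.0668, 0.0585, 0.0310 and 0.0338).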

How the results depend on the processing

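The number of genes called between R6/2 and WT hearts at 4 weeks, 0 with edgeR, stayed at 0 under RLE size factors, without a filter, with limma on FPKM, with a sex or marker covariate, and with any 1 heart left out. It was 68 with DESeq2, 27 with DESeq2 without WT mice 12 and 13, 17 with the heading code (L1 to L8) as a covariate, 2 in males and 38 in females, and the cause was not tested. The WT females were mice 12 and 13, which carried thymus transcripts. Among females 26 of 27 thymocyte markers were over 2-fold lower in R6/2 hearts, so that sex and these transcripts cannot be told apart there. With the heading code as a covariate, the genotypes were compared through R6/2 mouse 14, a male, and WT mouse 12, a female with thymus transcripts. No other code was shared by R6/2 and WT hearts. The calls and the median with the heading code thus rest on 1 heart of each genotype and cannot test the groups. The median absolute log2 fold change, 0.1154, was 0.1194 to 0.1419 with 1 heart left out. It was 0.2061 without a filter, 0.2081 with DESeq2 (0.2654 without WT mice 12 and 13), 0.2251 with the heading code, 0.2045 with thymocyte markers, 0.2860 with thymocyte and airway markers as covariates and 0.1825 in males. Calls for sex, 6, were 70 with DESeq2 and 6 to 11 with 1 heart left out (11 without WT mouse 10). Calls for the difference between ages, 86, were 44 without a filter, 799 with DESeq2 and 25 at an adjusted p under 0.05. They were 11 without WT mice 1, 2, 12 and 13, and 13 to 516 with 1 heart left out. Calls at 15 weeks, 2205, were 3394 with DESeq2, 821 at an adjusted p under 0.05 and 659 (without R6/2 mouse 5) to 3376 (without WT mouse 4) with 1 heart left out. Calls at 8 months, 0, were 70 with DESeq2 and 0 to 3 with 1 heart left out (3 without HdhQ150 mouse 22). The thymocyte difference, -215.5 CPM, ranged from -285.6 CPM without WT mouse 11 to -131.8 CPM without WT mouse 12. Without WT mouse 11 the exact permutation p was 0.0286, unadjusted and the smallest possible there. That heart (44.0 CPM) was the only WT heart within the R6/2 range, so leaving it out set the separation and this p cannot test the genotypes. The airway difference, 74.8 CPM, ranged from -50.06 CPM without R6/2 mouse 9, a change of direction, to 164.8 CPM without WT mouse 12. Of 41 named genes 22 kept their sign in every alternative run and 19 did not.

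No paired analysis was possible because the columns carry mouse numbers that stand in no sample label, so that they cannot be joined to the numbers in the titles. The settings marker covariates together, red cell markers, males only, females only, DESeq2 without WT mice 12 and 13, hearts left out in pairs, and the lists with hearts left out were added after the data were seen. With 4 hearts a group, fold changes under 1.3 could be bounded for 27.9% of genes only.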

Other observations

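The genes named here were chosen after their values were seen. WT mouse 11 and R6/2 mouse 9, both males, differed from the other 6 hearts in the same genes, those of heart muscle, matrix and dividing cells among them. Both were at or under 0.5 times every other heart in 53 genes at 2 CPM or more in each of those others, where the next pair of hearts had 4, and both were at 2 or more times every other heart in 27 genes that reached 2 CPM in at least 1 heart. Actc1, the actin of heart muscle, had 2437 CPM in the WT heart and 2034 CPM in the R6/2 heart against 6018 to 7927 CPM in the others. Ryr2, the calcium release channel, was at 812 and 628 CPM against 1064 to 1615 CPM, and Fhl2 at 458 and 487 CPM against 1063 to 1694 CPM. Col1a1, the main fibrillar collagen, was at 70.8 and 73.6 CPM against 140 to 325 CPM. Mki67, a marker of dividing cells, was lowest in the same hearts, at 1.26 and 2.28 CPM against 3.22 to 39.2 CPM. Since 1 was WT and 1 was R6/2, this difference lay across the genotypes. Without both hearts edgeR again called 0 genes, the median absolute log2 fold change was 0.1002, and 33 of 33 fatty acid oxidation genes and 0 of 40 cell cycle genes were higher in R6/2 hearts.

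Several lists differed in their counts between males and females. Matrix and fibroblast genes were higher in R6/2 hearts for 13 of 47 genes among males and for 45 of 47 among females. Nuclear genes of oxidative phosphorylation were higher for 12 of 78 among males and 74 of 78 among females, the mitochondrial ones for 0 and 13 of 13, sarcomere genes for 10 and 34 of 45, and calcium handling genes for 4 and 18 of 24. The difference between the sexes was not tested. Among males the 4 hearts included WT mouse 11 and R6/2 mouse 9. Among females the WT hearts were mice 12 and 13, which carried thymus transcripts. WT mouse 12 had the lowest sums of nuclear and of mitochondrial oxidative phosphorylation genes of all hearts of 4 weeks (34875 and 220820 CPM).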
